A study of Populus davidiana with 6 samples.

Results

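Divergent gene pairs are neighbouring genes that lie head to head, the first on the minus strand and the next on the plus strand, so that both are transcribed away from the DNA between them. In the leaf transcriptome of Populus davidiana, an aspen, 636 such pairs with a gap of 1 to 1000 bp were found among 37403 pairs of adjacent known genes. They held 1272 of 38379 known genes, that is genes with at least 1 transcript marked known in the deposited files. A gene was taken to span the smallest start to the largest end of its transcripts, genes were ordered by start, and the gap was the start of the second gene minus the end of the first. No FPKM value entered this choice. The spans did include transcripts assembled from the reads, so the reads could set the facing ends of a gene. With spans of known transcripts alone, 615 pairs were found.

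RNA sequencing was done on leaves of the cultivar Seogwang9, labelled drought tolerant, in 3 libraries from air-dried plants and 3 from control plants. All plants were grown by internode culture on medium with an auxin and were about 6 weeks old. Air-dried plants were lifted from the medium, washed in sterile water and kept in open air for some 10 minutes. The labels do not say how the controls were handled before harvest, nor whether the triplicate leaf samples stand for different plants, so the p-values reflect only the spread among these libraries, and that spread may be technical.

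When promoters lie back to back, the DNA between 2 genes can hold regulatory elements for both, and some such stretches drive transcription in both directions. In other head-to-head pairs each gene keeps its own core promoter, and the levels of the partners can then be set apart. Drying of a leaf closes the stomata and starts hormone signalling, chiefly through abscisic acid, that alters the transcription of many genes. The gap used here is the distance between the facing ends of the listed spans. Transcription starts were not mapped, and whether a gap acts as a shared promoter was not measured.

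Each library listed the same 112919 transcripts of 40537 genes. Between 98060 and 98561 transcripts were above 0 in the air-dried libraries and between 98441 and 99285 in the controls. Depth, estimated from the steps of low values, was 0.892 to 1.06 times that of control 1 in the air-dried libraries and up to 1.33 times in the other controls. The estimate is rough. The most frequent step held 196 of 779, 122 of 853 and 202 of 865 low transcripts in the air-dried libraries. In controls 2 and 3 it held 217 of 894 and 156 of 1015. Summed FPKM was 1672570 to 2136560 in the air-dried libraries and 1767950, 3552550 and 3002170 in controls 1, 2 and 3. Across the groups, the libraries formed 2 sets: air-dried 1 with controls 1 and 2 (set A), and air-dried 2 and 3 with control 3 (set B). Over 41577 transcripts, libraries of the same set had rank correlations of 0.817 to 0.863 and libraries of different sets had 0.733 to 0.773; the labels name no batch. Gene names were not given, so genes are called by their coordinates as deposited, on a genome build that none of the sources used here names, and leaf markers could not be checked. No sequence was available for the gaps or the genes. The accessions have the form used for Populus trichocarpa, so gaps are those of that reference and may differ in Populus davidiana.

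The gaps covered the whole window, from 3 to 999 bp, with a median of 581.5 bp. They became more numerous with distance: 113 pairs were 1 to 250 bp apart, 147 were 251 to 500 bp, 176 were 501 to 750 bp and 200 were 751 to 1000 bp. Numbered chromosomes carried 617 of the pairs, between 10 on chromosome 19 and 63 on chromosome 1, and scaffolds carried 19. In 503 pairs no other listed locus lay in the gap or overlapped a partner. In the other 133 another locus did, and since no source used here gives a strand setting, reads of overlapping loci may not have been told apart. The members spanned a median of 2417 bp, against 2367 bp for all known genes, and 637 of the 1272 members had at least 1 transcript assembled from the reads beside the known one.

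In 268 pairs (42.1%) both partners averaged at least 1 FPKM (fragments scaled by transcript length and library size, summed over the transcripts of a gene) over the 6 libraries, the level required for testing. In 226 pairs (35.5%) only 1 partner reached that level, the minus-strand gene in 97 and the plus-strand gene in 129. In 142 pairs (22.3%) neither did. In all, 762 members were tested, and 345 members (27.1%) were listed at 0 in every library, close to the 25.7% of all known genes. Expression of both partners was most frequent at the shortest gaps: 60.2% of pairs 1 to 250 bp apart had both partners at 1 FPKM or more, against 46.9%, 39.8% and 30.5% in the next 3 distance classes. Same-strand neighbours ran the other way, with 25.9%, 33.6%, 35.3% and 38.2% in the same classes, and convergent neighbours, which face each other with their ends, had 46.8%, 43.6%, 41.3% and 39.8%. These shares are a description, and the differences between them were not tested. Spans included transcripts assembled from the reads, so the gap was not independent of expression. The shares by distance were not counted with spans of known transcripts.

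**Figure D1:**
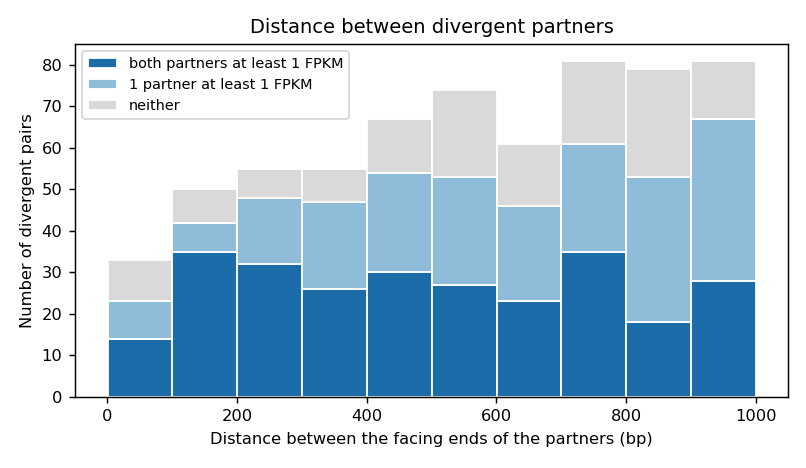
Number of divergent pairs (y axis) by the distance in bp between the facing ends of the partners (x axis, classes of 100 bp), divided into pairs with both partners, 1 partner or neither averaging 1 FPKM or more. Pairs with both partners expressed make up most of the short-gap columns, 60.2% of pairs up to 250 bp apart, and a smaller part of the columns near 1000 bp. Spans include transcripts assembled from the reads, so the gap is not independent of expression.

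The shortest gaps with both partners tested were 23, 25 and 26 bp. On chromosome 1 the minus-strand gene at 26507500 to 26510783 ended 23 bp before the plus-strand gene at 26510806 to 26512593. The first had 34.0, 33.9 and 29.7 FPKM in the air-dried libraries, against 32.9, 29.9 and 27.9 FPKM in the controls. The second had 110.5, 114.7 and 89.95 FPKM in the air-dried libraries, against 103.5, 96.4 and 94.4 FPKM in the controls. The plus-strand partner was the higher in each of the 6 libraries, the groups overlapped for both genes, and neither was called. With a gap of 25 bp on chromosome 6 (22030341 to 22031815 and 22031840 to 22033798) the partners averaged 6.73 and 2.69 FPKM in the air-dried leaves, against 6.85 and 2.59 FPKM in the controls. With a gap of 26 bp on chromosome 2 (6079598 to 6081976 and 6082002 to 6083327) they averaged 18.4 and 16.3 FPKM in the air-dried leaves, against 19.7 and 13.7 FPKM in the controls. The partners of these pairs were not called either.

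Levels were then compared between partners. Over the 268 pairs with both partners tested, the plus-strand gene was the higher in 131 and the minus-strand gene in 137. The median fold between partners was 2.77. In 90 pairs (33.6%) they lay within 2-fold of each other, in 165 (61.6%) within 4-fold, and in 38 (14.2%) they were over 10-fold apart. The order of the partners was steady: the same gene was the higher in all 6 libraries in 238 pairs (88.8%), and in 0 pairs did the 3 air-dried libraries all order the partners one way and the 3 controls all the other way.

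The Spearman rank correlation of the partners' mean log2(FPKM + 1) across the 268 pairs was 0.0444; the pairs share the 6 libraries, and the correlation is a description. It was 0.1678 without a filter on low values, 0.1236 at 5 FPKM or more and 0.1242 at gaps up to 500 bp. Within single libraries it was 0.0495, 0.0443 and 0.0348 in the air-dried libraries and 0.0411, 0.0563 and 0.0565 in the controls, means of 0.0429 ± 0.0075 and 0.0513 ± 0.0088 (SD, n = 3 each). The groups overlapped, and the difference did not pass an exact two-sided permutation test (p = 0.3), in which 3 against 3 libraries cannot go below 0.1. The median absolute log2 ratio between partners, on the log2(FPKM + 1) scale, was 1.38 ± 0.044 in the air-dried libraries and 1.42 ± 0.079 in the controls (SD, n = 3 each; exact permutation p = 0.6). The median level of the partners was 14.3 ± 0.42 FPKM in the air-dried libraries and 13.8 ± 0.13 FPKM in the controls (SD, n = 3 each; exact permutation p = 0.3). Over all 6 libraries, the median of the 762 tested partners was 14.0 FPKM, against 12.6 FPKM for all tested genes.

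**Figure D2:**
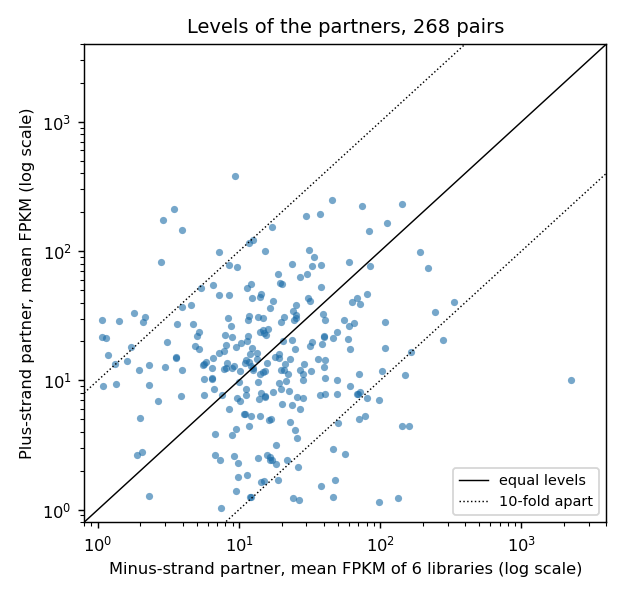
Mean FPKM over the 6 libraries of the plus-strand partner (y axis) against the minus-strand partner (x axis), both on log scales, 1 point for each of the 268 pairs with both partners tested; the solid line marks equal levels and the dotted lines a 10-fold difference. The points spread to both sides of the solid line (rank correlation 0.0444), and 38 pairs lie beyond the dotted lines.

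The median absolute log2 ratio of mean levels was 1.47 in divergent partners, against 1.80 over 731 pairs of same-strand neighbours and 1.84 over 1097 pairs of convergent neighbours within the same gap. The rank correlation of levels was 0.0444 in divergent partners, against -0.0051 in same-strand and -0.0326 in convergent neighbours. The divergent partners were thus somewhat closer in level by the median ratio, and the differences between the arrangements were not tested.

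The pairs with the highest lower partner had both genes at 65.6 FPKM or more in each of the 6 libraries. On chromosome 17, 963 bp apart, the minus-strand gene at 14049048 to 14052007 had 201, 107 and 80.7 FPKM in the air-dried libraries, against 208, 164 and 88.5 FPKM in the controls. Its partner at 14052970 to 14056983 had 239, 248 and 237 FPKM in the air-dried libraries, against 232, 199 and 228 FPKM in the controls. The first gene varied more than 2-fold inside each group while the second stayed close to its mean. On chromosome 9, 739 bp apart, the genes at 6668268 to 6670149 and 6670888 to 6673713 averaged 114 and 178 FPKM in the air-dried leaves, against 110.7 and 151 FPKM in the controls. On chromosome 13, 308 bp apart, those at 1647668 to 1650170 and 1650478 to 1654121 averaged 179 and 89.7 FPKM in the air-dried leaves, against 206 and 108 FPKM in the controls. On chromosome 5, 444 bp apart, those at 3405675 to 3408129 and 3408573 to 3414060 averaged 76.8 and 137 FPKM in the air-dried leaves, against 90.1 and 152 FPKM in the controls. None of these 8 genes was called.

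The other end of the scale was a pair on chromosome 5, 329 bp apart, with partners 223-fold apart by their means. The minus-strand gene at 23688279 to 23694345 had 2514, 1748 and 1211 FPKM in the air-dried libraries, against 4195, 2084 and 1766 FPKM in the controls, and was not called. Its partner POPTR_0005s25430, on the plus strand at 23694674 to 23696371, had 7.497, 6.14 and 7.53 FPKM in the air-dried libraries, against 13.7, 11.9 and 13.9 FPKM in the controls. The air-dried values of the partner were all below the controls, and it fell by a log2 change of -0.81 (SE 0.106, limma adjusted p = 0.006064), by -0.70 within set A and -0.93 within set B. The larger gene had an estimate of -0.51 (limma adjusted p = 0.5023), and the difference between the partners' changes was -0.30 (limma adjusted p = 0.6596). Ratios of 108.8 and 85.5 were found on chromosome 6 (3599745 to 3611832 and 3612303 to 3615020) and chromosome 8 (4723915 to 4727864 and 4728684 to 4729172), where the low partners averaged 1.25 and 1.04 FPKM in the air-dried leaves, against 1.22 and 1.26 FPKM in the controls.

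In the 226 pairs with only 1 tested partner the other was mostly silent. It was listed at 0 in all 6 libraries in 141 pairs and reached 1 FPKM in at least 1 library in 19. It was at 1 FPKM or more in all 3 air-dried libraries in 1 pair and in all 3 controls in 2. The expressed genes beside them were not weak: their median was 11.9 FPKM, and 132 of the 226 averaged at least 10 FPKM. An FPKM of 0 can be a failed estimate in files of this kind, so silent here means listed at 0.

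The main comparison was that of air-dried with control leaves. Of the 762 tested partners, 18 were higher and 15 were lower in the air-dried leaves at a limma adjusted p under 0.05. These 33 genes were 4.33% of the tested partners, whereas 13.0% of all 22356 tested genes were called (5.6% higher and 7.44% lower). In bulk leaves, fewer cells of a type and less RNA per cell cannot be told apart. At an unadjusted p under 0.05, 114 partners (14.96%) were called, against 27.1% of all tested genes. In a fit with a term for the library set, 29 partners (3.81%) were called, against 12.3% of all tested genes. All 33 estimates had the same direction in both sets, and 24 of the 33 were also called with the set term. The 33 were chosen by a fit over these same libraries, so this agreement is largely built in and is only a description. Of the 33, 2 passed the filter on low values only through the controls, as their air-dried mean was under 1 FPKM. Leaving out genes with a mean under 1 FPKM in either group, a step added after seeing the data, 31 of 744 partners (4.17%) were called, against 12.5% of all genes so tested.

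The estimates of the partners were smaller and not less precise. Their median absolute log2 change was 0.137, against 0.175 for all tested genes, and the 90th percentile was 0.393 against 0.687, while the median standard errors were 0.115 and 0.116. Changes of the called genes were modest: the log2 changes of the 18 higher partners ran from 0.32 to 0.74, with a median of 0.45, and those of 14 lower partners from -0.81 to -0.40, with a median of -0.50. The remaining lower partner stood at 0 in every air-dried library, so no fold is given for it. Leaving out genes at 0 in a whole group, 0 of 32 called partners reached 2-fold on the log2(FPKM + 1) scale, whereas 676 of 2904 called genes (23.3%) did, 3.02% of all genes tested. Genes averaging under 1 FPKM in a group stay in these counts unless listed at 0 there. Among all called partners there were 2 of them, and among all 2916 called genes 219. How many of the 219 reached 2-fold was not counted. The gene at 1503267 on chromosome 13 is one of them and is among the 14 lower partners. The median log2 change of all tested partners was 0.059, against 0.0080 for all tested genes.

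The lower share was seen at each level of expression and for each number of transcripts. At a mean of 1 to under 3 FPKM, 2.2% of 91 partners were called, against 12.7% of all genes at that level. At 3 to under 10 FPKM it was 5.65% of 177 partners, against 14.3%, and at 10 to under 30 FPKM 4.31% of 302 partners, against 12.1%. At 30 to under 100 FPKM it was 4.64% of 151 partners, against 13.9%, and at 100 FPKM or more 2.44% of 41 partners, against 11.5%. For genes with 1 listed transcript the share was 4.97% in partners, against 16.2% in all genes with 1, and for genes with 6 or more it was 3.05%, against 8.2%. The median span of tested partners was 3480.5 bp, against 3525 bp for all tested genes.

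Distance and orientation both went with the share called. In divergent pairs it increased with the gap in every step: 1.88% of 160 tested genes at 1 to 250 bp, 4.19% of 191 at 251 to 500 bp, 4.46% of 202 at 501 to 750 bp and 6.22% of 209 at 751 to 1000 bp. Beyond the window it was 7.08% at 1001 to 2000 bp, 10.4% at 2001 to 5000 bp, 14.1% at 5001 to 10000 bp and 17.2% beyond that. Divergent genes whose spans overlap, which fall outside the rule, had 10.8%. Same-strand neighbours 1 to 1000 bp apart had 10.6% and convergent ones 12.1%; beyond 10000 bp they had 17.3% and 16.3%, so that the arrangements differed at short gaps and lay close together at long ones. A gene can belong to one pair on each side, so the classes share genes. The median absolute log2 change in divergent pairs was 0.113 at 1 to 250 bp and 0.184 beyond 10000 bp, with median standard errors of 0.119 and 0.112. In the fit with the set term the share called was 1.25% at 1 to 250 bp and 15.6% beyond 10000 bp. With the replicate block it was 0.625% and 12.5%, and with genes averaging at least 5 FPKM 0.73% and 16.3%; in both of these fits some neighbouring classes within the window changed places, as they did with quantile normalization, with spans of known transcripts and with sums of known transcripts, where the share was 1.65% at 1 to 250 bp and 1.77% at 751 to 1000 bp. No test was made of the differences between distances or between orientations.

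**Figure D3:**
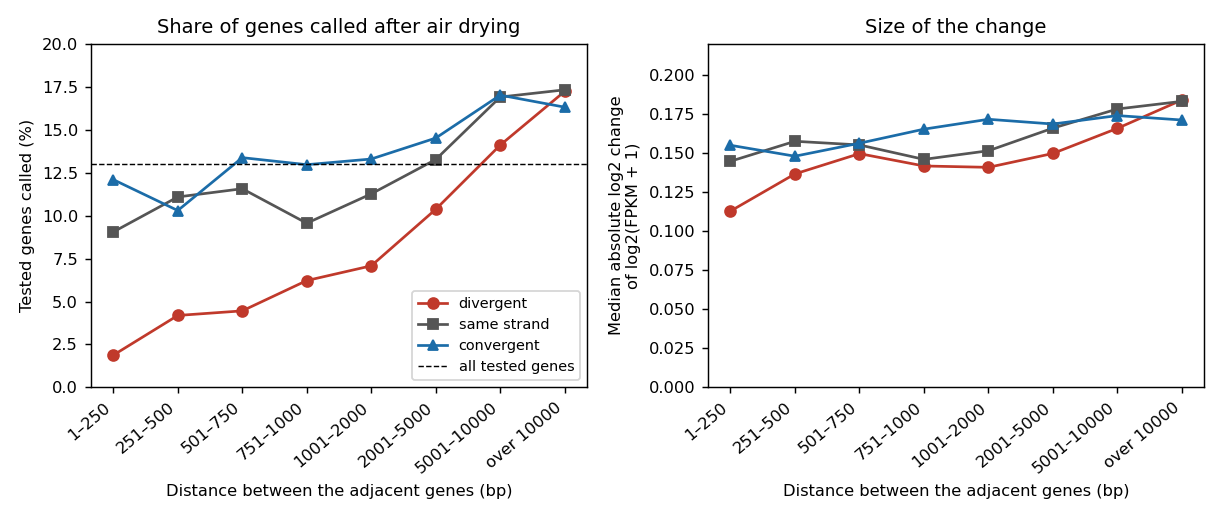
Left, percent of tested genes called at a limma adjusted p under 0.05 (y axis) by the distance between adjacent genes in bp (x axis, 8 classes) for divergent, same-strand and convergent neighbours, with the 13.0% of all tested genes as a dashed line; right, the median absolute log2 change in log2(FPKM + 1) in the same classes. The divergent line starts at 1.88% and climbs to 17.2%, and the other lines start at 9.05% and 12.1% and meet it beyond 10000 bp.

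Pairs on either side of the limit of 1000 bp were few. Just inside it, at 951 to 1000 bp, 13 pairs had both partners tested, with 0 partners called, a median absolute log2 ratio of levels of 0.85 and a median absolute log2 change of 0.139. Just outside, at 1001 to 1050 bp, 11 pairs had both tested, with 2 partners called, a ratio of 1.48 and a change of 0.151.

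Single libraries weighed on the number of calls. Leaving out a library left 4 higher and 9 lower partners without control 1, 5 and 5 without control 2, and 9 and 9 without control 3. It left 8 higher and 11 lower partners without air-dried 1, 6 and 5 without air-dried 2, and 8 and 9 without air-dried 3. The share called was then 1.32% to 2.5% of tested partners, against 6.63% to 8.97% of all tested genes in the same fits. Of the 33 called partners, 9 stayed called without control 2 and 16 without air-dried 1, the lowest and the highest number. From known transcripts alone 9 stayed called, 17 lost the call and 4 turned in sign. The rest averaged under 1 FPKM there and were not tested.

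Both partners were called in 1 of the 268 pairs, and in it both rose; 0 pairs had both lower and 0 had partners called in opposite directions. Among all 12667 adjacent pairs with both genes tested, both were higher in 0.568%, both lower in 0.813% and called in opposite directions in 0.679%. At an unadjusted limma p under 0.05, 3 of the 268 divergent pairs were higher together, 2 lower together and 1 opposite. The shares of all adjacent pairs were 2.44%, 2.83% and 3.24%. In 20 pairs (7.46%) 1 partner was called, against 22.6% of adjacent pairs.

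The pair that rose together lies on chromosome 16 with a gap of 760 bp. The minus-strand gene at 5475873 to 5480008 had 5.49, 7.01 and 7.21 FPKM in the air-dried libraries, against 3.85, 4.25 and 4.53 FPKM in the controls, a log2 change of 0.53 (SE 0.119, limma adjusted p = 0.03624). The plus-strand gene at 5480768 to 5482933 had 58.7, 58.5 and 54.4 FPKM in the air-dried libraries, against 47.5, 47.1 and 42.7 FPKM in the controls, a log2 change of 0.32 (SE 0.0758, limma adjusted p = 0.04587). For both genes every air-dried value was above every control. The difference between their changes, plus-strand minus minus-strand partner, was -0.22 (limma adjusted p = 0.427). The joint call was near the threshold: it was lost with each single library left out, where the limma adjusted p of the plus-strand gene was 0.07455 to 0.1304, and with the replicate block (limma adjusted p = 0.05036). It was also lost without a filter and at 5 FPKM or more, through the minus-strand gene (limma adjusted p = 0.0535 and 0.05589), and with libraries scaled to the same median or limma without the trend, through the plus-strand gene (limma adjusted p = 0.06067 and 0.05573). From known transcripts alone the minus-strand gene had a log2 change of 0.075 (limma adjusted p = 0.9115): these summed to 3.36 FPKM in the air-dried leaves and 2.96 FPKM in the controls.

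The uncalled partner had the sign of the called one in 14 of the 20 pairs with 1 call. The like share among all adjacent pairs with 1 call was not counted. Across the 268 pairs the estimates of both partners were above 0 in 111, below 0 in 45 and opposite in 112 (41.8%), where 46.5% of all adjacent pairs had opposite estimates. The rank correlation of the partners' log2 changes was 0.101 over the 268 pairs, which share the same libraries, 0.0948 in same-strand and 0.0692 in convergent neighbours, and 0.409 in the 148 divergent pairs with overlapping spans, whose reads may not have been told apart.

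**Figure D4:**
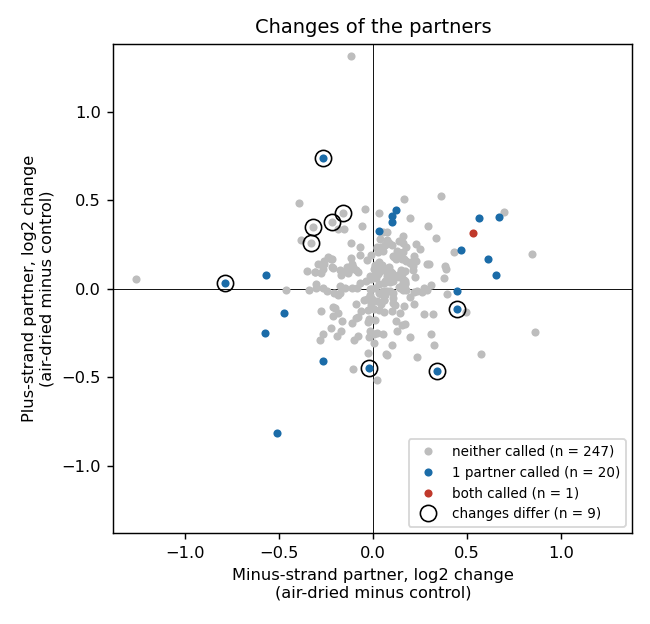
Log2 change (air-dried minus control, log2(FPKM + 1)) of the plus-strand partner (y axis) against that of the minus-strand partner (x axis) for the 268 pairs with both partners tested; colours show whether neither, 1 or both partners were called, and rings mark the 9 pairs whose changes differed. Most pairs crowd around 0, and 1 pair has both partners called.

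A test of the difference between the partners' changes asked where the genes of a pair changed by different amounts. It passed a limma adjusted p under 0.05 in 9 of 268 pairs (3.36%), against 16.0% of the 12667 adjacent pairs. In 6 of the 9 the plus-strand gene had the more positive change and in 3 the more negative one. In 5 of them 1 partner was called as a gene and in 4 neither was. The count of 9 includes a pair on chromosome 14 with a partner that passed the filter on low values only through the air-dried libraries. Its plus-strand gene had the more negative change. At an unadjusted p under 0.05 the count was 29 of the 268 pairs, a smaller share than the 29.7% of adjacent pairs. Same-strand neighbours at the same distance passed in 79 of 731 pairs (10.8%) and convergent ones in 165 of 1097 (15.04%).

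The largest difference belonged to a pair on chromosome 16, 937 bp apart. The minus-strand gene at 203146 to 204646 had 13.1, 14.6 and 9.09 FPKM in the air-dried libraries, against 15.4, 15.7 and 13.2 FPKM in the controls. Its partner POPTR_0016s00600.r1, on the plus strand at 205583 to 206585, had 14.9, 12.2 and 10.4 FPKM in the air-dried libraries, against 7.47, 7.35 and 6.31 FPKM in the controls. The partners were thus at like levels in the air-dried leaves, whereas in each control the minus-strand gene was about 2-fold higher. POPTR_0016s00600.r1 rose by a log2 change of 0.74 (SE 0.138, limma adjusted p = 0.02114), and its partner had an estimate of -0.27 (limma adjusted p = 0.3986). The difference was 1.00 (SE 0.147, limma adjusted p = 0.004928), and it stayed called with each library left out in turn. From known transcripts alone the gene averaged 3.13 FPKM in the air-dried leaves and 4.07 FPKM in the controls, so its rise lay in the assembled transcripts. Another listed locus overlaps the pair.

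The next pair, on chromosome 5 and 928 bp apart, differed through its minus-strand gene. That gene, at 3545083 to 3548781, had 20.6, 20.5 and 20.7 FPKM in the air-dried libraries, against 35.6, 32.5 and 41.1 FPKM in the controls. It fell by a log2 change of -0.79 (SE 0.096, limma adjusted p = 0.004806). The plus-strand gene at 3549709 to 3553338 had 10.7, 10.3 and 9.45 FPKM in the air-dried libraries, against 9.26, 10.4 and 10.1 FPKM in the controls. The groups were apart for the first gene and overlapped for the second. The difference was 0.82 (SE 0.137, limma adjusted p = 0.008065); it too stayed called with each library left out, but was 0.16 from known transcripts (limma adjusted p = 0.7239).

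On chromosome 14, 763 bp apart, a low gene and one some 13.5-fold higher differed. The plus-strand gene at 9978672 to 9984638 had 13.7, 12.1 and 13.6 FPKM in the air-dried libraries, against 18.1, 19.9 and 17.5 FPKM in the controls, and fell by a log2 change of -0.46 (SE 0.0835, limma adjusted p = 0.01843). The minus-strand gene at 9974756 to 9977909 had 1.37, 1.23 and 1.68 FPKM in the air-dried libraries, against 0.612, 1.04 and 1.11 FPKM in the controls. All 3 air-dried values of this low gene were above the controls. Its control mean was 0.92 FPKM, and it passed the filter on low values only through the air-dried libraries. Its values are therefore a description, with no test. The difference, plus-strand minus minus-strand, was -0.81. The pair counts among the 9 past the difference test, but that test leans on the low gene, so the difference is a description too.

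In 4 pairs the partners leaned in opposite directions without either being called. On chromosome 9, 432 bp apart, the minus-strand gene at 10376604 to 10378553 had 203, 189 and 188 FPKM in the air-dried libraries, against 239.9, 257 and 227 FPKM in the controls. Its partner at 10378985 to 10382099 had 79.6, 93.1 and 76.4 FPKM in the air-dried libraries, against 64.6, 70.04 and 60.0 FPKM in the controls. The groups were apart in both genes, the first lower and the second higher in air-dried leaves. Their estimates were -0.32 (limma adjusted p = 0.06818) and 0.35 (limma adjusted p = 0.09078), and the difference was 0.67 (SE 0.134, limma adjusted p = 0.0164). Another listed locus overlaps this pair.

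On chromosome 6, 714 bp apart, the gene at 10380015 to 10381248 had 17.6, 13.9 and 14.5 FPKM in the air-dried libraries, against 12.5, 12.1 and 10.1 FPKM in the controls. Its minus-strand partner at 10375075 to 10379301 had 6.65, 4.004 and 4.79 FPKM in the air-dried libraries, against 6.10, 7.04 and 5.14 FPKM in the controls. The groups were apart in the first gene only, and the difference was 0.60 (SE 0.134, limma adjusted p = 0.02435). On chromosome 3, 183 bp apart, the gene at 17255505 to 17259785 had 15.7, 11.3 and 12.7 FPKM in the air-dried libraries, against 10.05, 11.8 and 10.8 FPKM in the controls. Its minus-strand partner at 17252941 to 17255322 had 4.16, 2.90 and 3.13 FPKM in the air-dried libraries, against 4.24, 5.16 and 4.14 FPKM in the controls. Both genes overlapped between the groups, and their ratio, by which the pair was chosen, did not. The difference was 0.59 (SE 0.116, limma adjusted p = 0.01541). On chromosome 7, 881 bp apart, the genes at 437354 to 439654 and 440535 to 442942 averaged 8.99 and 8.61 FPKM in the air-dried leaves, against 10.2 and 6.12 FPKM in the controls, with a difference of 0.58 (SE 0.140, limma adjusted p = 0.03135).

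The remaining pairs that differed lay on chromosomes 8 and 3. On chromosome 8, 943 bp apart, the minus-strand gene at 8959353 to 8964254 had 21.7, 23.5 and 23.7 FPKM in the air-dried libraries, against 14.4, 17.2 and 18.3 FPKM in the controls, and rose by 0.45 (limma adjusted p = 0.03933). Its partner at 8965197 to 8968728 averaged 11.5 FPKM in the air-dried leaves and 12.5 FPKM in the controls. The difference was -0.56 (SE 0.136, limma adjusted p = 0.0323). In the fit with the set term the minus-strand gene lost its call (limma adjusted p = 0.0516), and the difference kept its call (limma adjusted p = 0.03973). On chromosome 3, 202 bp apart, the plus-strand gene at 8782599 to 8784426 had 6.79, 6.71 and 6.52 FPKM in the air-dried libraries, against 8.39, 10.6 and 9.53 FPKM in the controls, and fell by -0.45 (limma adjusted p = 0.03061). Its partner at 8777745 to 8782397 averaged 17.3 FPKM in the air-dried leaves and 17.6 FPKM in the controls, and the difference was -0.43 (SE 0.115, limma adjusted p = 0.04685). In the fit with the set term both the gene and the difference lost their call (limma adjusted p = 0.05949 and 0.07206), and the difference was kept in 5 of 16 alternatives. From known transcripts alone the plus-strand gene averaged 0.333 FPKM in the air-dried leaves and 1.66 FPKM in the controls. Most of its level thus lay in an assembled transcript. Of the 9 differences, the number that stayed called was 3 without control 1, 2 without control 2, 6 without control 3, 7 without air-dried 1, 5 without air-dried 2 and 3 without air-dried 3.

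**Figure D5:**
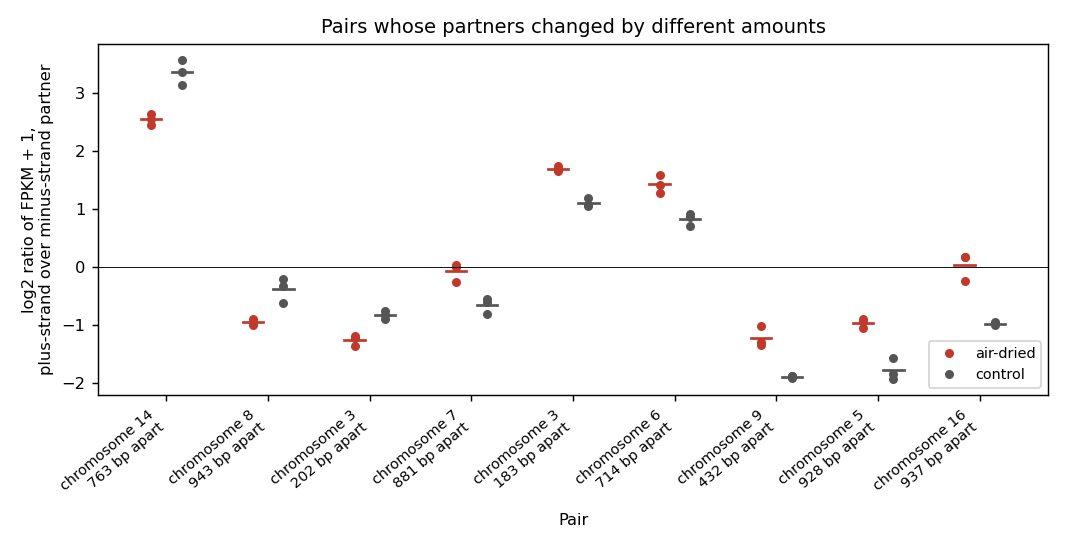
Log2 ratio of FPKM + 1 of the plus-strand over the minus-strand partner (y axis) in each of the 3 air-dried and 3 control libraries, for the 9 pairs whose changes differed (x axis, by chromosome and gap); short bars are group means. In each of the 9 pairs the air-dried and control points do not overlap, and the largest shift, 1.00, is that of the pair 937 bp apart on chromosome 16. The 9 pairs were chosen by a test on this same ratio, so the separation is largely built in. The pair on chromosome 14 holds a partner that passed the filter on low values only through the air-dried libraries.

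Other called partners had a tested neighbour that was not called. POPTR_0001s34130.r1, on the minus strand of chromosome 1 at 32269185 to 32272132 with a gap of 649 bp, had 16.8, 13.4 and 16.8 FPKM in the air-dried libraries, against 8.00, 9.30 and 11.6 FPKM in the controls. It rose by a log2 change of 0.66 (SE 0.153, limma adjusted p = 0.04197). Its estimate was 0.89 in set A and 0.35 in set B, and it was not called in the fit with the set term (limma adjusted p = 0.07597). From known transcripts alone it averaged 3.76 FPKM in the air-dried leaves and 3.64 FPKM in the controls, which ended the call (limma adjusted p = 0.9962). The partner at 32272781 to 32275291 averaged 12.3 FPKM in the air-dried leaves and 11.7 FPKM in the controls. On chromosome 5 the minus-strand gene at 13163175 to 13166266, 577 bp from its partner, had 10.3, 10.9 and 11.9 FPKM in the air-dried libraries, against 6.76, 7.72 and 6.18 FPKM in the controls, and rose by 0.61 (limma adjusted p = 0.01327). Its partner at 13166843 to 13168430 averaged 4.07 FPKM in the air-dried leaves and 3.51 FPKM in the controls.

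In 2 pairs the uncalled partner came close to the threshold with the same sign. On chromosome 17, 347 bp apart, the plus-strand gene at 3752298 to 3755884 averaged 9.94 FPKM in the air-dried leaves and 13.5 FPKM in the controls, and fell by -0.41 (limma adjusted p = 0.03764), while its partner at 3747537 to 3751951 averaged 13.8 FPKM in the air-dried leaves and 16.8 FPKM in the controls (limma adjusted p = 0.05032). On chromosome 8, 271 bp apart, the plus-strand gene at 5369976 to 5371011 averaged 88.5 FPKM in the air-dried leaves and 66.6 FPKM in the controls, and rose by 0.41 (limma adjusted p = 0.0166), while its partner at 5366291 to 5369705 averaged 10.7 FPKM in the air-dried leaves and 6.24 FPKM in the controls (limma adjusted p = 0.06592). In the fit with the set term the plus-strand gene on chromosome 17 lost its call (limma adjusted p = 0.06408) and that on chromosome 8 kept it (limma adjusted p = 0.02444). These pairs, and the gene at 13163175, were picked out after their values were seen.

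Of the 226 tested genes beside a partner under 1 FPKM, 4 rose and 7 fell, with 2 of the 7 having passed the filter on low values only through the controls. Among all 22356 tested genes, 5.6% were called higher and 7.44% lower, both larger shares than in these 226. POPTR_0013s02530.r1, on the minus strand of chromosome 13 at 1503267 to 1506072 with a gap of 677 bp, had 1.09, 0.742 and 0.686 FPKM in the air-dried libraries, against 1.83, 2.61 and 2.12 FPKM in the controls. Its values did not overlap between the groups, but it passed the filter on low values only through the controls, so they are a description, with no test. Its partner averaged 0.452 FPKM in the air-dried leaves and 0.529 FPKM in the controls. A plus-strand gene on chromosome 10, at 12294024 to 12298178, had 64.6, 57.7 and 60.7 FPKM in the air-dried libraries, against 94.1, 97.3 and 91.5 FPKM in the controls. It fell by -0.62 (SE 0.0736, limma adjusted p = 0.004326) beside a partner 638 bp away that was listed at 0 in every library. The groups were apart in this gene. From known transcripts alone it averaged 1.36 FPKM in the air-dried leaves and 3.67 FPKM in the controls. Nearly all of its level and of its fall thus lay in assembled transcripts. A plus-strand gene on chromosome 10, at 14662399 to 14664491, had 82.2, 76.6 and 70.8 FPKM in the air-dried libraries, against 55.1, 55.6 and 51.3 FPKM in the controls, and rose by 0.49 (limma adjusted p = 0.01478), also beside a partner listed at 0 throughout. A minus-strand gene on chromosome 13, at 4105450 to 4107682, had 12.3, 12.9 and 12.04 FPKM in the air-dried libraries, against 8.36, 7.73 and 8.80 FPKM in the controls, and rose by 0.53 (limma adjusted p = 0.008067) 258 bp from another gene listed at 0. A gene of 216 bp on chromosome 1, at 35089067 to 35089282, stood at 0 in every air-dried library and had 5.79, 5.96 and 1.43 FPKM in the controls. It passed the filter on low values only through the controls, so its values are a description, with no test. Its control values followed the library sets, 5.79 and 5.96 in set A and 1.43 in set B. The genes on chromosomes 10, 13 and 1 without an accession were chosen after their values were seen.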

How the data were processed

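Each of the 6 files held FPKM per transcript as deposited by the authors, per the file headers; FastQC, TopHat and Cufflinks are named, without versions, in the submitters' processing notes. A genome build and a strand setting are named in none of the sources used here. Sequencing was of poly(A) RNA (TruSeq libraries, paired 100 bp reads), per the labels' protocols. Absolute depth is unknown, so no counting interval is given.

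Gene FPKM was the sum over its transcripts, used as log2(FPKM + 1), without rescaling. The 22356 genes that averaged 1 FPKM or more over all libraries were tested, air-dried against control, with limma 3.58.1 (lmFit, eBayes with trend, R 4.3.3), two-sided, Benjamini-Hochberg over all genes, threshold 0.05. Fold changes are on that scale and understate changes of low genes. The difference between partners was tested likewise on the per-library difference of log2 values, over all 12667 adjacent pairs with both genes tested. Single values per library were compared with exact permutation tests in scipy 1.17.1. The fits were also run on simulated data with independent noise for each gene and planted changes of 2-fold or more. That simulation held no library sets, so it does not cover the sets seen here or smaller changes.

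Pairs given in full were, by rule, the one with both partners called, the 6 largest differences between partners, the 4 with the highest lower partner, the 3 largest level ratios and the 3 shortest gaps, and all others past the difference test. The accessions printed are the largest 2 rises and 2 falls of called partners not listed at 0 in a group. Alternatives are given in the closing section. The members and lists were chosen with earlier results of these data known; the library sets come from an earlier look at the same data. Distance classes refitted under other settings, genes spanning at least 300 bp, and genes averaging 1 FPKM or more in each group, were added after the values were seen. Libraries were not paired by replicate number, since deviations of same-numbered libraries from their group means correlated at 0.187, -0.0961 and 0.292.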

Additional observations from a re-analysis of the deposited data

Results flagged for a closer look

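A locus assembled from the reads inside a gap carried a signal that no comparison of the pairs used. On chromosome 5, in the gap of 686 bp between the genes at 25395256 to 25397494 and 25398180 to 25401003, a plus-strand locus at 25397618 to 25398002 had 2.12, 2.60 and 1.72 FPKM in the air-dried libraries, against 0.457, 0 and 0.578 FPKM in the controls. Its mean was 2.144 FPKM in the air-dried leaves and 0.345 FPKM in the controls, and the groups did not overlap. It passed the filter on low values only through the air-dried libraries, so no test of it is given. The minus-strand partner averaged 4.69 FPKM in the air-dried leaves and 3.18 FPKM in the controls and rose by 0.45 (limma adjusted p = 0.04789). Nearly all of its FPKM lay in an assembled transcript. Its call was kept in 4 of 15 alternatives and was lost in the fit with the set term (limma adjusted p = 0.08781). The plus-strand partner averaged 144.7 FPKM in the air-dried leaves and 146.1 FPKM in the controls. A minus-strand locus at 25397617 to 25398091 overlaps the assembled one and had 1.09 FPKM in air-dried 3 and 0 in the other 5 libraries, so that reads of these loci may not have been told apart.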

How the results depend on the processing

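The percent of tested partners called lay below that of all tested genes in 21 of 21 alternatives, at 0.188 to 0.446 times it (0.332 as reported), and between 1.318% and 5.811%. It was 2.097% of partners and 8.405% of all genes from known transcripts alone, and 1.318% to 2.5% with a library left out. Higher partners were 7 and lower ones 6 from known transcripts, 5 and 6 at gaps up to 500 bp (260 pairs), and 52 and 44 at gaps up to 2000 bp (1451 pairs); with a library left out, which leaves fewer samples, they were 4 to 9 and 5 to 11. Pairs with both partners called in the same direction were 2 with pseudocounts of 0.5 and 0.1, quantile normalization, genes spanning at least 300 bp and gaps up to 2000 bp, and 0 with known transcripts, limma without the trend, gaps up to 500 bp and every library left out. The second pair was that 347 bp apart on chromosome 17 with either pseudocount and with quantile normalization, and that 271 bp apart on chromosome 8 at 300 bp or more. Where 1 pair was found it was another than the one reported without a filter (897 bp apart on chromosome 14), and at 5 FPKM or more and with libraries scaled to the same median (347 bp apart on chromosome 17). Opposite pairs were 2 at gaps up to 2000 bp. Pairs with 1 partner called were 8 with known transcripts, 6 and 44 at gaps up to 500 and 2000 bp, and 7 to 13 with a library left out. Pairs whose partners differed were 0 with known transcripts, 3 and 23 at gaps up to 500 and 2000 bp, and 3 to 9 with a library left out. The rank correlation of levels was 0.1678 without a filter, 0.1236 at 5 FPKM or more, 0.06816 with known transcripts, 0.1242 at gaps up to 500 bp, 0.05513 with spans of known transcripts, 0.02681 in pairs with no other locus, and 0.04968 to 0.06549 with a library left out; that of changes was 0.02708 to 0.1278 with a library left out. From known transcripts 4 of the 33 called partners reversed, namely those starting at 32269185 on chromosome 1 (-0.005036), 11526406 on chromosome 12 (0.6628), 205583 on chromosome 16 (-0.312) and 163590 on chromosome 5 (-0.3738), as did the difference of the pair 937 bp apart on chromosome 16 (-0.04455). The cause of these shifts was not tested.

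Replicate numbers were not shown to pair the libraries, since control 2 correlated better with air-dried 1 (0.1605) than with its own number (-0.09606). With the replicate block 9 partners were higher and 9 lower (2.362%, against 9.487% of all tested genes), 11 pairs had 1 partner called and 0 pairs had both; 17 of the 33 called partners and 7 of the 9 differences stayed called.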

Other observations

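In 5 pairs a locus without any known transcript lay wholly inside the gap. On chromosome 6 a locus of 169 bp without a strand, at 21571137 to 21571305, had 1524, 1038 and 619 FPKM in the air-dried libraries, against 1819, 1862 and 536 FPKM in the controls. Its log2 change was -0.30 (limma adjusted p = 0.8), the groups overlapped, and both partners, 531 bp apart, were listed at 0 in every library. The loci in gaps on chromosomes 1 and 11 were 101 bp long and were listed at 0 in all 6 libraries.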
